A study of Mus musculus with 24 samples.

Results

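The genes described here are 34 that make or carry heparan sulfate, taken by name from a fixed list and matched by Ensembl identifier, out of 53946 genes in the count table. They comprise 5 genes for chain polymerisation, 4 N-deacetylase/N-sulfotransferases, the epimerase and the 2-O-sulfotransferase, 3 6-O-sulfotransferases, 6 3-O-sulfotransferases, 2 extracellular endosulfatases, 6 glypicans, 4 syndecans and the secreted core proteins perlecan and agrin.

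PolyA RNA was measured in the ventral otocyst, the part of the embryonic inner ear that holds the cochlea, of C57BL/6J x 129X1/SvJ mice at embryonic day 14.5. Fgf20+/- embryos (het) served as controls and also lack 1 working copy of Fgf20; they were compared with Fgf20-/- embryos (mut). TRAP, translating ribosome affinity purification, used an antibody to GFP to pull down ribosomes tagged with L10a-eGFP in the Fgf20-Cre lineage, so a TRAP library holds RNA bound to ribosomes of cells that express, or descend from cells that expressed, the Cre driver. For the pre-TRAP libraries the labels repeat the extraction text of the TRAP libraries. There were 8 TRAP het, 8 TRAP mut, 4 pre-TRAP het and 4 pre-TRAP mut libraries, each a pool of 3 to 7 embryos and each group divided evenly between 2 experiments, which the labels give as the batch.

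Heparan sulfate is a linear sugar chain built in the Golgi on a few core proteins, then modified by deacetylation, epimerisation and sulfation in an order that leaves patterned sulfated stretches. Fibroblast growth factors need these stretches to bind and activate their receptors, and the chain also limits how far such ligands spread between cells. FGF20 is the ligand of the prosensory epithelium of the cochlea, where it is needed for the outer hair cells and their neighbouring supporting cells.

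Total counts ran from 30745166 to 53374796 reads per library. Levels are given as CPM, the reads of a gene scaled by library total and TMM factor. Fgf20 itself measured 4.20 ± 0.98 CPM (SD, n = 8) in TRAP het, 2.24 ± 0.74 (SD, n = 8) in TRAP mut, 0.879 ± 0.578 (SD, n = 4) in pre-TRAP het and 0.237 ± 0.070 (SD, n = 4) in pre-TRAP mut. Its genotype difference was not called in TRAP (log2 fold change -0.94, edgeR adjusted p = 0.188) or in pre-TRAP (-1.75, adjusted p = 0.837). The labels do not say which part of the gene is missing, so counts in the mutants do not test the genotype. Of the marker genes, 13 of 13 for neurons and 9 of 10 for the prosensory domain were higher in TRAP than in pre-TRAP libraries, whereas 12 of 14 for periotic mesenchyme, 8 of 10 for otic capsule cartilage and 9 of 9 for endothelium were lower. Of all genes tested, 27.9% were higher and 31.2% lower. No marker stood at 0 in every TRAP or every pre-TRAP library. The summed mesenchyme markers spanned 279 to 1267 CPM in TRAP and 979 to 1469.5 CPM in pre-TRAP, and TRAP libraries 3, 4, 5 and 6 held the most of the TRAP libraries, with 563 to 1267 CPM against 279 to 512 CPM in the other 12. Whether a difference in bulk RNA comes from fewer cells of a type or from less RNA per cell cannot be told apart, and p-values measure the spread between these pools.

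The first question was which heparan sulfate genes stood higher or lower on the tagged ribosomes than in pre-TRAP RNA. Among the 33 members tested, 5 were higher in TRAP (15.2%, beside 27.9% of the 24242 genes tested) and 20 were lower (60.6%, beside 31.2%), each at an edgeR adjusted p under 0.05. In either direction 59.1% of all genes were called. The median log2 fold change of the members was -0.62, and that of the genes tested was -0.01. The higher members were the 3-O-sulfotransferase genes Hs3st5, Hs3st2 and Hs3st6, the 6-O-sulfotransferase gene Hs6st1 and the glypican gene Gpc1. The lower members took in every chain polymerisation gene, both extracellular endosulfatases and every syndecan. In experiment 1 alone 5 members were higher and 19 lower, beside 20.3% and 25.3% of the genes tested there. In experiment 2 alone 6 were higher and 16 lower, beside 23.1% and 22.3%. Hs6st3 was too low to test, with 0 to 16 counts in a TRAP library and at most 1 in a pre-TRAP library.

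**Figure D1:**
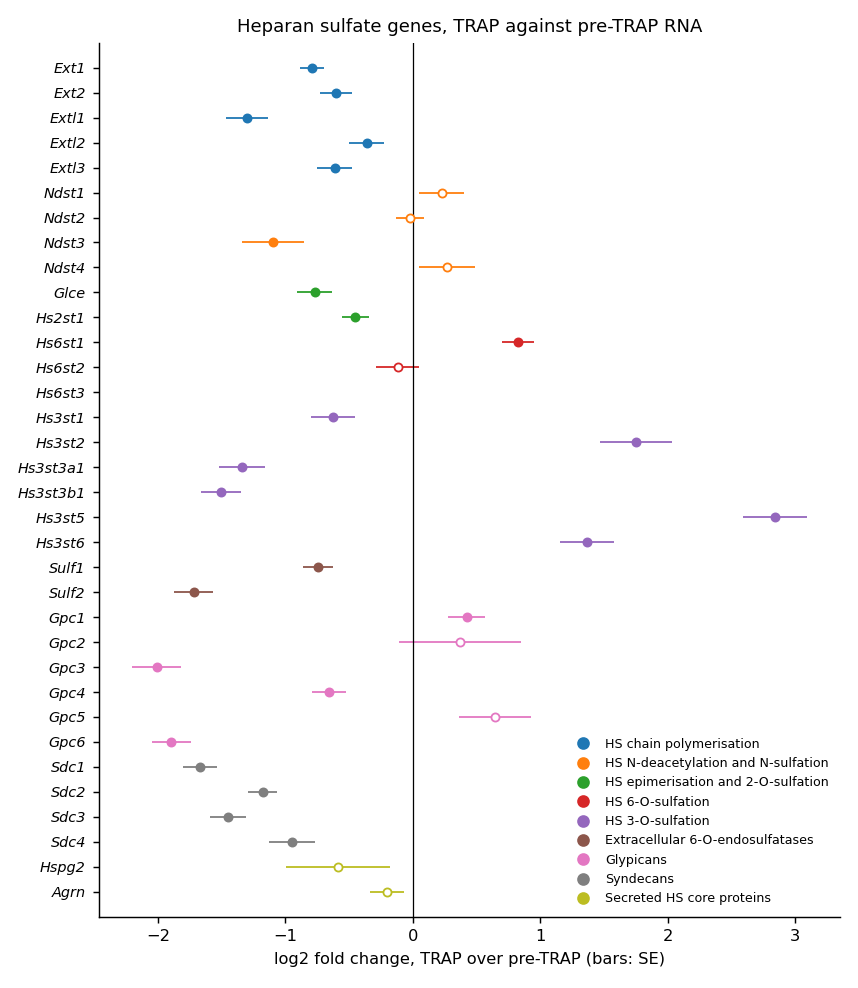
Log2 fold change of each heparan sulfate gene between TRAP and pre-TRAP libraries (x axis, points with SE bars) against gene (y axis, coloured by role), with filled points for genes called at an adjusted p under 0.05 and open points for the others; Hs6st3 was not tested. The 5 filled points right of 0 run from 0.42 for Gpc1 to 2.84 for Hs3st5, and the 20 filled points left of 0 run from -0.36 for Extl2 to -2.01 for Gpc3.

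Chain polymerisation begins the work, and the 5 genes for it were all lower in TRAP, with a median log2 fold change of -0.62. Ext1 and Ext2 encode the subunits of the complex that adds alternating glucuronic acid and N-acetylglucosamine. Ext1 had 11.1, 12.8 and 16.5 CPM as its lowest, median and highest TRAP library and 17.4, 22.5 and 30.4 CPM in pre-TRAP. All 16 TRAP libraries lay below the 8 pre-TRAP libraries, a difference of -0.79 ± 0.10 (log2, SE; edgeR adjusted p = 8.01e-08). Ext2 fell between the same groups by 0.61 on the log2 scale (adjusted p = 0.000175), with 14 of 16 TRAP libraries below every pre-TRAP library. Extl1, an exostosin-like glycosyltransferase, had 1.96, 6.26 and 11.5 CPM in TRAP and 12.1, 14.7 and 20.2 CPM in pre-TRAP, again with no overlap (-1.30 ± 0.17, adjusted p = 1.87e-07). Extl3, which adds the first N-acetylglucosamine that commits a linker to heparan sulfate, was lower by a log2 fold change of -0.61 ± 0.14 (adjusted p = 0.000325). Extl2, which can end a chain at the linker, showed the smallest difference of those called, -0.36 ± 0.14 (adjusted p = 0.0266). It was no longer called without library 5, 20, 21 or 23, in either experiment alone or in either genotype alone.

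The 4 N-deacetylase/N-sulfotransferases replace acetyl groups with sulfate, the step on which later modifications depend, and 1 of them differed between the methods. Ndst3 had 0.354, 0.709 and 1.69 CPM as its lowest, median and highest TRAP library and 1.20, 1.85 and 2.54 CPM in pre-TRAP. It was lower in TRAP (-1.10 ± 0.24, adjusted p = 0.000346), with 13 of 16 TRAP libraries below the whole pre-TRAP range, but was not called in experiment 2 alone or in mut libraries alone. Ndst1 and Ndst2, which are broadly expressed in mouse tissues, were not called: Ndst1 differed by 0.23 (95% interval -0.12 to 0.58) and Ndst2 by -0.02 (-0.23 to 0.19). Ndst1 was called higher in experiment 2 alone (0.59, adjusted p = 0.0482) and without library 19 (0.43, adjusted p = 0.0443), and measured -0.11 in experiment 1 alone. Ndst4, the chromosome 3 neighbour of Ndst3 with 3 protein-coding genes between them, differed by 0.27 (-0.17 to 0.70). The Ndst3 and Ndst4 values rested on few reads, 11 to 94 counts per library for Ndst3 and 16 to 49 for Ndst4.

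Glce, which flips glucuronic to iduronic acid, and Hs2st1, which then adds a 2-O-sulfate to the uronic acid, were both lower in TRAP. Glce measured 4.72, 7.16 and 12.0 CPM in TRAP and 11.1, 13.1 and 15.5 CPM in pre-TRAP (-0.77 ± 0.14, adjusted p = 2.14e-05). Only 1 TRAP library, the highest, reached into the pre-TRAP range. Hs2st1 measured 8.21, 11.1 and 12.5 CPM in TRAP and 11.0, 14.2 and 19.5 CPM in pre-TRAP. The ranges overlapped in 9 TRAP libraries, the log2 fold change was -0.45 ± 0.11 (adjusted p = 0.000616), and it was not called in experiment 2 alone or in mut libraries alone.

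The 6-O-sulfotransferases place a sulfate that FGF receptors require in the complex with ligand. Hs6st1 stood higher in TRAP, with 9.94, 12.1 and 17.5 CPM beside 5.09, 6.55 and 10.1 CPM in pre-TRAP. Its log2 fold change was 0.83 ± 0.13 (adjusted p = 3.26e-06), and 14 of 16 TRAP libraries lay above every pre-TRAP library. Hs6st2 was not called, at -0.12 (95% interval -0.45 to 0.21).

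The 3-O-sulfotransferases add the rarest sulfate of the chain. The 6 on the list divided evenly, and each was called. Of them 3 were higher (50.0%, beside 27.9% of all genes tested) and 3 lower (50.0%, beside 31.2%). Hs3st4, a gene of the same family outside the list, was also higher in TRAP and is given with the further carriers. Hs3st5 showed the largest rise of any member. It had 2.42, 4.35 and 7.11 CPM as its lowest, median and highest TRAP library, and in pre-TRAP the het libraries held 0.474, 0.810, 0.620 and 0.286 CPM and the mut libraries 0.883, 1.37, 0.504 and 0.118 CPM. Every TRAP library exceeded every pre-TRAP library, and the log2 fold change was 2.84 ± 0.25 (adjusted p = 2.10e-10), a 7.17-fold difference. Hs3st5 was the 1 member with that separation, which 6.42% of the genes tested showed.

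Hs3st2 had 0.250, 0.690 and 1.64 CPM in TRAP and 0.0952, 0.167 and 0.508 CPM in pre-TRAP. It was higher in TRAP by 1.75 ± 0.28 on the log2 scale (adjusted p = 5.96e-06), and 13 of 16 TRAP libraries lay above the pre-TRAP range. Hs3st6 rose by 1.37 ± 0.21 (adjusted p = 3.95e-06), from 0.885, 1.05 and 2.34 CPM in pre-TRAP to 1.71, 2.83 and 5.64 CPM in TRAP. In the same libraries the summed neuron markers were 3088 to 5976 CPM in TRAP and 591 to 940 CPM in pre-TRAP, and the summed prosensory markers 607 to 893 and 149 to 222 CPM. The part of either cell type in these 3 rises was not tested.

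The other 3-O-sulfotransferases on the list were lower on the tagged ribosomes. Hs3st3b1 had 1.80, 2.89 and 4.63 CPM in TRAP and 7.44, 9.13 and 10.2 CPM in pre-TRAP, with no overlap (-1.50 ± 0.16, adjusted p = 6.18e-09). Hs3st3a1 had 0.731, 1.19 and 2.19 CPM in TRAP and 2.19, 2.88 and 5.05 CPM in pre-TRAP (-1.34 ± 0.18, adjusted p = 4.06e-07). A single TRAP library, mut library 8, touched the pre-TRAP range. The sulfotransferase domains of these enzymes are almost identical and both genes lie on chromosome 11 with 1 protein-coding gene between them, so reads could have been split between them in counting and each value alone is uncertain. Hs3st1, the enzyme known for making the antithrombin-binding site, was lower by a log2 fold change of -0.62 ± 0.17 (adjusted p = 0.00301). It was not called in het libraries alone, where it measured -0.38 (adjusted p = 0.247).

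The stretches upstream of the start of 4 of these genes are shown because the pair highest over pre-TRAP and the neighbouring pair that was lower moved in opposite directions. Each is the 250 bases before the start in RefSeq on build GRCm38.p6, printed 5′ to 3′ on the gene's strand with every CG in capitals. They lie at chr10:36506557-36506806 (plus strand) for Hs3st5, chr7:121392046-121392295 (plus) for Hs3st2, chr11:64435082-64435331 (plus) for Hs3st3a1 and chr11:63922285-63922534 (minus) for Hs3st3b1.
Hs3st5: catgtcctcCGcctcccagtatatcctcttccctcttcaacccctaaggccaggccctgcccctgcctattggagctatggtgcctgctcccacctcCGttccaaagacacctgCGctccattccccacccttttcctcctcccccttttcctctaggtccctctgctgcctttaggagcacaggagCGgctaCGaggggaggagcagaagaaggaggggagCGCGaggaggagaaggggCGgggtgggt
Hs3st2: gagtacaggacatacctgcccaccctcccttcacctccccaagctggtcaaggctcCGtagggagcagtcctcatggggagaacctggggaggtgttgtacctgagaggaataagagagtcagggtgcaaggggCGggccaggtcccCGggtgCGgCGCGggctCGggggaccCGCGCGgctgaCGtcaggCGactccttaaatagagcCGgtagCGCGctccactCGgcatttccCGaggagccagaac
Hs3st3a1: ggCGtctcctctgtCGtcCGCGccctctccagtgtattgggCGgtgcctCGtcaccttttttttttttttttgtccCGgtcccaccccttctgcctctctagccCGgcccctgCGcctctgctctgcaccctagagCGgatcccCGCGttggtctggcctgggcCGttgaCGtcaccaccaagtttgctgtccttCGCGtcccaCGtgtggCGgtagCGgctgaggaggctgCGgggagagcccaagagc
Hs3st3b1: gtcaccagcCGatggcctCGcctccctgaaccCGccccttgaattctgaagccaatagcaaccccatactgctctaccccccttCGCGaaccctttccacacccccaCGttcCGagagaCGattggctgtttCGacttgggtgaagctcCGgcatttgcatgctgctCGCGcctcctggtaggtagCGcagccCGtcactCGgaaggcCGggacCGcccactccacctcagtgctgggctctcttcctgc
Hs3st5 held 8 CG, Hs3st2 and Hs3st3b1 held 17 each and Hs3st3a1 held 20, where the median of 32851 such windows was 6. Of those windows, 57.0% held fewer CG than that of Hs3st5, 76.5% fewer than those of Hs3st2 and Hs3st3b1, and 82.1% fewer than that of Hs3st3a1. None of the 4 windows held TATAAA on either strand, which 12.4% of the windows did. Of the 34 members, 25 had an entry in the promoter table.

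**Figure D2:**
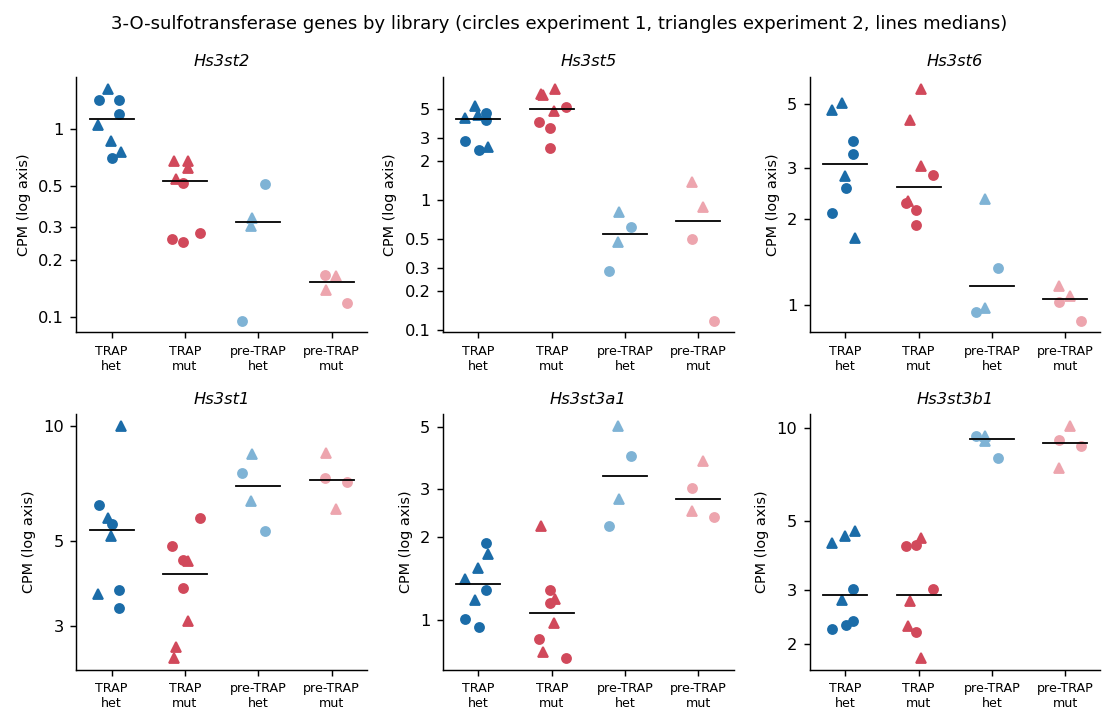
CPM on a log axis (y) in each library of the 4 groups (x) for 6 3-O-sulfotransferase genes, with circles for experiment 1, triangles for experiment 2 and lines for group medians. Hs3st5 in the 16 TRAP libraries, 2.42 to 7.11 CPM, lies above the 8 pre-TRAP libraries, Hs3st3b1 in TRAP lies below them, and the 8 TRAP mut libraries of Hs3st2 lie below the 8 TRAP het libraries.

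Sulf1 and Sulf2 encode the extracellular enzymes that remove 6-O-sulfates from finished chains, and both were lower in TRAP. Sulf2 had 8.36, 11.3 and 26.5 CPM as its lowest, median and highest TRAP library and 36.6, 44.1 and 49.6 CPM in pre-TRAP. The ranges did not overlap, and the log2 fold change was -1.72 ± 0.16 (adjusted p = 3.62e-10). Sulf1 had 16.3, 28.1 and 50.0 CPM in TRAP and 37.6, 49.4 and 63.5 CPM in pre-TRAP (-0.74 ± 0.12, adjusted p = 5.33e-06). For Sulf1, 15 of 16 TRAP libraries were below the pre-TRAP range, and the exception was mut library 6.

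Glypicans are core proteins held to the membrane by a lipid anchor. Of the 6 tested, 1 was higher (16.7%, beside 27.9% of all genes tested) and 3 were lower (50.0%, beside 31.2%). Gpc3, whose loss causes overgrowth, showed the largest fall of any member. Its lowest, median and highest libraries were 18.4, 25.2 and 90.6 CPM in TRAP and 105, 130 and 159 CPM in pre-TRAP, with no overlap (-2.01 ± 0.19, adjusted p = 8.56e-10). Gpc6 behaved alike, with 3.61, 6.10 and 12.6 CPM in TRAP and 19.5, 24.0 and 30.4 CPM in pre-TRAP (-1.90 ± 0.16, adjusted p = 5.46e-11). Gpc4, which lies beside Gpc3 on the X chromosome, was lower by a smaller amount, -0.66 ± 0.13 (adjusted p = 0.000135), and was not called in experiment 2 alone.

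Gpc1 was the glypican that was higher in TRAP. Its lowest, median and highest libraries were 18.3, 29.4 and 44.9 CPM in TRAP and 17.3, 21.6 and 36.8 CPM in pre-TRAP, so most libraries overlapped, and the log2 fold change was 0.42 ± 0.14 (adjusted p = 0.0136). It was called in experiment 2 but not in experiment 1 alone (0.21, adjusted p = 0.487), and not in het libraries alone. Gpc5, which lies beside Gpc6 on chromosome 14, was not called (0.65 ± 0.29, adjusted p = 0.0535). It passed the threshold without library 1, 2, 5, 7, 17, 23 or 24 and in DESeq2 (adjusted p = 0.0324). Gpc2, with 0 to 16 counts per library, differed by 0.37 (95% interval -0.56 to 1.31) and was not called.

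The syndecans, core proteins that span the membrane, were all lower in TRAP, with a median log2 fold change of -1.32 over the 4. Sdc1 had 4.63, 8.68 and 12.6 CPM in TRAP and 24.2, 28.1 and 31.0 CPM in pre-TRAP (-1.67 ± 0.13, adjusted p = 3.03e-11). Sdc3 had 6.09, 8.48 and 15.3 CPM in TRAP and 19.4, 22.8 and 42.4 CPM in pre-TRAP (-1.45 ± 0.14, adjusted p = 1.59e-09). For both, no TRAP library reached the lowest pre-TRAP library. Sdc2 had 10.9, 15.9 and 31.9 CPM in TRAP and 30.6, 35.1 and 50.5 CPM in pre-TRAP (-1.18 ± 0.12, adjusted p = 1.79e-09), with mut library 6 alone inside the pre-TRAP range. Sdc4 had 42.0, 78.2 and 118 CPM in TRAP and 85.0, 134 and 266 CPM in pre-TRAP (-0.95 ± 0.18, adjusted p = 6.43e-05), and 6 TRAP libraries overlapped the pre-TRAP range.

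Over the whole set, 8 members had every TRAP library below every pre-TRAP library, a pattern of 8.15% of the genes tested. These were Ext1, Extl1, Hs3st3b1, Sulf2, Gpc3, Gpc6, Sdc1 and Sdc3. They come from 5 of the role groups.

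Of the secreted core proteins neither was called in edgeR, whereas limma voom with quality weights called both lower in TRAP, Hspg2 at -1.33 (adjusted p = 0.000158) and Agrn at -0.30 (adjusted p = 0.0264). Hspg2, perlecan of basement membranes and cartilage, had 1.96, 4.97 and 30.5 CPM as its lowest, median and highest TRAP library and 7.69, 11.0 and 21.7 CPM in pre-TRAP (-0.59 ± 0.41, adjusted p = 0.220). The 4 TRAP libraries with the most mesenchyme marker RNA, libraries 3 to 6, held 11.9 to 30.5 CPM, and the other 12 held 1.96 to 6.06 CPM, below the pre-TRAP range. The summed cartilage markers moved with them, at 1651.3 to 6035 CPM in the 4 and 596 to 1052 CPM in the 12, and their part in the Hspg2 values was not tested. Without those 4 libraries Hspg2 was lower in TRAP by a log2 fold change of -1.55 ± 0.19 (adjusted p = 2.46e-07), and without mut library 6 alone it was also called (-0.93, adjusted p = 0.0168). Since the libraries left out held the highest Hspg2 values in TRAP, both fits lower its TRAP level by construction and do not test a fall. Agrn, agrin, known for organising the neuromuscular synapse, differed by -0.20 (95% interval -0.47 to 0.06) and passed the threshold without libraries 3 to 6 (-0.30, edgeR adjusted p = 0.0428). Its lowest, median and highest libraries were 17.7, 26.9 and 48.9 CPM in TRAP and 22.7, 33.7 and 42.6 CPM in pre-TRAP.

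Libraries 3 to 6 also stood above the other TRAP libraries for Sulf2 and Gpc6. Sulf2 measured 14.4 to 26.5 CPM in them and 8.36 to 13.2 CPM in the other 12, and Gpc6 8.25 to 12.6 and 3.61 to 7.87 CPM. The share of all genes that set these 4 libraries apart, as Hspg2, Sulf2 and Gpc6 did, was not counted. The separation is therefore not read as particular to these genes. Gpc3 overlapped, at 36.3 to 90.6 and 18.4 to 38.0 CPM, since library 10 lay above library 4. Without these 4 libraries 22 members were lower, beside 32.6% of the genes tested there, and 5 higher, beside 28.6%. The log2 fold changes were then -1.99 for Sulf2, -2.11 for Gpc6 and -2.38 for Gpc3. Leaving out TRAP libraries high for a gene enlarges its fall by construction. With each library's mean mesenchyme marker level as a covariate, 2 members were called higher, Hs3st5 (2.14, adjusted p = 0.00295) and Hspg2 (2.96, adjusted p = 9.54e-08), and 2 lower, Sdc1 (-0.91, adjusted p = 0.0384) and Sdc3 (-1.30, adjusted p = 0.0237). In that fit 7.31% of the genes tested were higher and 3.7% lower. That level ran from 3.00 to 4.66 (mean log2) in TRAP and from 5.28 to 5.71 in pre-TRAP, with no overlap, so it and the collection method cannot be told apart in full.

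**Figure D3:**
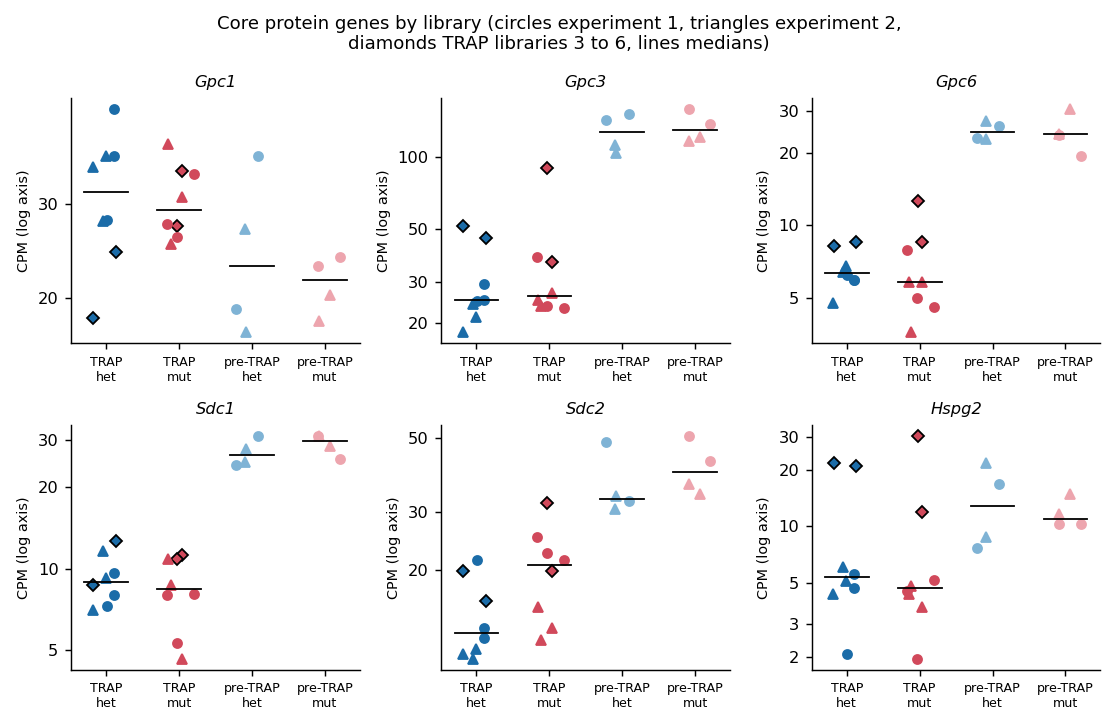
CPM on a log axis (y) in each library of the 4 groups (x) for 6 core protein genes, with circles for experiment 1, triangles for experiment 2, outlined diamonds for TRAP libraries 3 to 6 and lines for group medians. The diamonds of Hspg2 sit at 11.9 to 30.5 CPM and the other TRAP libraries at 1.96 to 6.06 CPM, while Gpc3, Gpc6 and Sdc1 in TRAP lie below the pre-TRAP libraries with or without the diamonds.

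Genes around the pathway were counted from lists of their own. Of 15 genes for the linker sugars and precursor supply, 12 were lower in TRAP (80.0%, beside 31.2% of all genes tested). In that list 1 was higher (6.7%, beside 27.9%), and the median log2 fold change was -0.59. Papss2, which makes the sulfate donor PAPS, fell from a median of 240 to 29.9 CPM (-2.54 ± 0.24, adjusted p = 1.20e-09). Slc26a2, the sulfate transporter, measured -2.18 (adjusted p = 3.09e-09), Xylt1, which starts the linker on the core protein, -1.76 (adjusted p = 2.31e-07), and Fam20b, the linker xylose kinase, -1.19 (adjusted p = 1.63e-08). Of 16 genes for chondroitin chains, which share that linker, 14 were lower (87.5%) and 1 was higher (6.2%), with a median of -1.20. Csgalnact1, which commits the linker to chondroitin, measured -2.28 ± 0.23 (adjusted p = 3.21e-09), and Chst15, a chondroitin sulfotransferase, was higher by 1.67 ± 0.10 (adjusted p = 1.28e-13).

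The list of further carriers, a further 3-O-sulfotransferase and release enzymes had 5 of 9 genes higher (55.6%, beside 27.9% of all genes tested). In it 2 were lower (22.2%, beside 31.2%), and the median was 0.86. Spock1, which encodes the secreted core protein testican, had 27.5, 38.6 and 51.5 CPM as its lowest, median and highest TRAP library and 5.71, 6.89 and 10.4 CPM in pre-TRAP (2.39 ± 0.12, adjusted p = 4.86e-15). Hs3st4, another 3-O-sulfotransferase, had 1.12, 2.34 and 6.21 CPM in TRAP and 0.223, 0.581 and 1.02 CPM in pre-TRAP (2.08 ± 0.26, adjusted p = 1.25e-07). Both had no overlap between the methods. Spock3 was higher by 1.52 (adjusted p = 1.58e-11). The lower pair was Tgfbr3, betaglycan, at -1.82 (adjusted p = 3.44e-07) and Notum, which strips a lipid from Wnt proteins, at -2.08 (adjusted p = 2.42e-06). Of 8 lysosomal genes that break heparan sulfate down, 6 were lower and 2 higher, the latter being Idua (0.74, adjusted p = 6.27e-07) and Ids (0.71, adjusted p = 0.0044), which act at iduronic acid.

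The second question was whether loss of the remaining Fgf20 copy changed these genes. In TRAP libraries 0 of the 33 members tested were called by edgeR, beside 0.0742% of 21577 genes, and 3 had an unadjusted p under 0.05 (Hs3st1, Hs3st2 and Sdc2), beside 3.77% of the genes. DESeq2 called 1 member lower, Hs3st2, beside 0.181% of the genes, and limma voom called 0. In DESeq2 5 members had an unadjusted p under 0.05, beside 4.18% of the genes, and in limma voom 8, beside 5.05%. The log2 difference was smaller than 0.5 in either direction for 32 of the 33, with a median SE of 0.20. In pre-TRAP libraries 0 of 32 members were called, beside 0.00455% of 21954 genes, and 0 had an unadjusted p under 0.05, beside 4.77%. DESeq2 and limma voom called 0 there, and 2 and 5 members had an unadjusted p under 0.05 in those tools, beside 4.68% and 10.4% of the genes. None of the 33 members tested showed a called interaction between genotype and method in edgeR (0.0% of the 24242 genes tested were called), and 0 had an unadjusted p under 0.05, beside 1.25% of the genes. DESeq2 and limma voom also called 0 interactions.

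**Figure D4:**
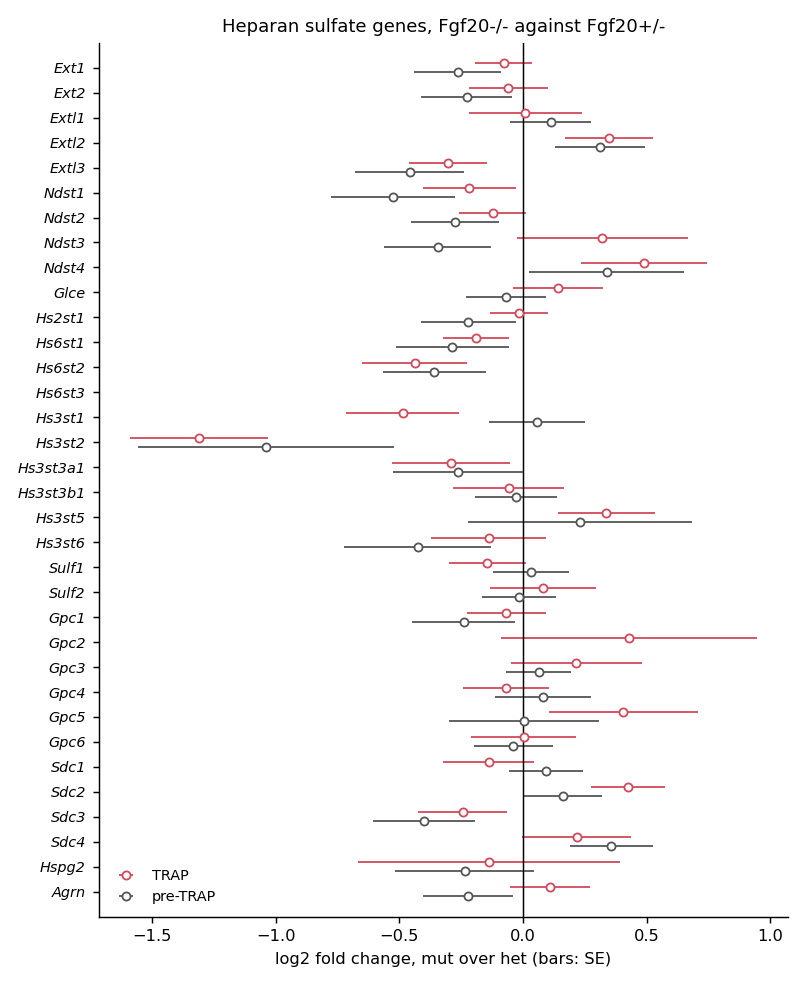
Log2 fold change of each heparan sulfate gene between Fgf20-/- and Fgf20+/- libraries (x axis, points with SE bars) against gene (y axis), in TRAP (red) and pre-TRAP (grey); all points are open because no member was called, and Hs6st3 in both and Gpc2 in pre-TRAP were not tested. Hs3st2 lies farthest left in both, at -1.31 in TRAP and -1.04 in pre-TRAP.

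Hs3st2 showed the largest genotype difference of the members in both kinds of RNA. In TRAP its lowest, median and highest library was 0.699, 1.13 and 1.64 CPM in het and 0.250, 0.528 and 0.681 CPM in mut. The 8 mut libraries all lay below the 8 het libraries, which 0.0695% of the genes tested did, and the counts behind them were 27 to 56 in het and 8 to 31 in mut. The log2 fold change was -1.31 ± 0.28, with an adjusted p of 0.0892 in edgeR and 0.00434 in DESeq2. It measured -1.88 in experiment 1 alone and -0.77 in experiment 2 alone, and neither was called. In the same libraries the prosensory markers had a median log2 fold change of -0.44 over the 9 tested in TRAP (1 called lower, Hey2, at -1.13) and -0.39 in pre-TRAP (0 called), beside -0.01 and -0.03 over all genes, and their part in the Hs3st2 difference was not tested. The prosensory list includes Fgf20, the mutated gene, which was among those tested in both kinds of RNA.

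In experiment 1 the mut libraries of Hs3st2 held 0.250, 0.260, 0.517 and 0.279 CPM and the het libraries 1.43, 1.44, 0.699 and 1.21 CPM. In experiment 2 the mut libraries held 0.540, 0.619, 0.680 and 0.681 CPM and the het libraries 1.05, 0.757, 0.866 and 1.64 CPM. Since all 8 mut libraries lay below all 8 het libraries, the genotypes could not overlap within either experiment. In pre-TRAP the het libraries held 0.508, 0.0952, 0.307 and 0.335 CPM and the mut libraries 0.168, 0.118, 0.166 and 0.139 CPM, from 4 to 18 counts each. There het library 21 lay below every mut library and the other het libraries lay above them. The log2 fold change of -1.04 ± 0.52 was not called (edgeR adjusted p = 0.837).

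The other members with a low unadjusted p in TRAP kept large adjusted values. Sdc2 had 10.9, 13.0 and 21.4 CPM in het and 12.3, 20.7 and 31.9 CPM in mut (0.43 ± 0.15, edgeR adjusted p = 0.974). Hs3st1 had 3.34, 5.35 and 9.99 CPM in het and 2.48, 4.11 and 5.74 CPM in mut (-0.49 ± 0.23, adjusted p = 1.00). In experiment 1 alone the Hs3st1 difference was 0.01. Both genes overlapped widely between genotypes.

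For the members that carry out the FGF-linked steps the intervals of the TRAP genotype difference were as follows. Hs2st1 differed by -0.02 (95% interval -0.25 to 0.21) and Ext1 by -0.08 (-0.30 to 0.15). Hs6st1 differed by -0.19 (-0.45 to 0.07), and Hs6st2 by -0.44 (-0.85 to -0.03; unadjusted p = 0.0506 in edgeR). Ndst1 differed by -0.22 (-0.58 to 0.15). Among the core proteins, Gpc1 differed by -0.07 (-0.38 to 0.25), Gpc3 by 0.22 (-0.30 to 0.73) and Sdc4 by 0.22 (-0.22 to 0.65). The bounds give the differences compatible with each estimate and are not limits of detection. They can be narrower than the F test implies, as the upper bound for Hs6st2 was -0.03 although its unadjusted p in edgeR was 0.0506. Hspg2 was the least precise, at -0.14 (-1.18 to 0.90), with libraries 3 and 5 of het and 4 and 6 of mut among its high values.

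The experiments were compared within each kind of library. In TRAP, 2 of 33 members differed between experiment 2 and experiment 1 (1 higher, beside 14.1% of genes, and 1 lower, beside 8.81%). Ndst1 was higher in experiment 2, with a mean of 23.7 ± 5.84 CPM (SD, n = 8) beside 15.1 ± 4.81 CPM (SD, n = 8) in experiment 1. Its log2 fold change was 0.72 ± 0.19 (edgeR adjusted p = 0.00742). Sdc2 was lower, with 10.9 to 20.0 CPM beside 12.5 to 31.9 CPM (-0.52 ± 0.15, adjusted p = 0.0151). Both ranges overlapped between experiments, and neither gene was called in het libraries alone.

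In pre-TRAP 1 of 32 members differed between the experiments and it was lower, beside 4.97% of genes; 0 members and 9.74% of genes were higher. Sdc4 held 149, 176, 266 and 242 CPM in experiment 1 and 85.0, 115, 94.8 and 119 CPM in experiment 2, with no overlap (-0.96 ± 0.17, edgeR adjusted p = 0.00208). The share of all genes without overlap between the experiments was not counted. In TRAP the Sdc4 difference was -0.24 (adjusted p = 0.473). Sdc2, called in TRAP, measured -0.35 ± 0.16 in pre-TRAP (adjusted p = 0.161) and was called there with the mesenchyme level as a covariate (-0.34, adjusted p = 0.0364). The difference between methods was not called as different between experiments for any of the 33 members in edgeR (0.0371% of genes were called, either direction), nor in DESeq2 or limma voom. Of these members 1, Gpc5, had an unadjusted p under 0.05 (4.57% of genes did), with an interaction of -1.45 ± 0.49 (adjusted p = 0.766). Gpc5 was 0.538 to 1.33 CPM in TRAP and 0.254 to 0.413 CPM in pre-TRAP of experiment 1, and 0.154 to 0.880 and 0.469 to 0.697 CPM in experiment 2. The methods were thus apart in experiment 1 and overlapped in experiment 2, and the share of all genes with that pattern was not counted.

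**Figure D5:**
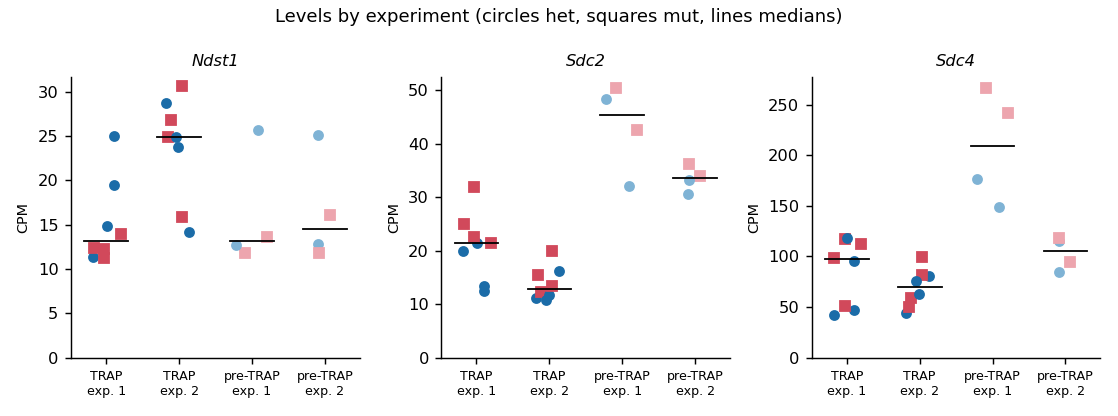
CPM (y, linear from 0) of Ndst1, Sdc2 and Sdc4 in each library, by collection method and experiment (x), with circles for het, squares for mut and lines for medians. Sdc4 in pre-TRAP lies at 149 to 266 CPM in experiment 1 and 85.0 to 119 CPM in experiment 2, and TRAP libraries of Ndst1 and Sdc2 overlap between experiments.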

How the data were processed

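The authors deposited unnormalised read counts for 53946 Ensembl genes. STAR, DESeq2 and build GRCm38.p5 are named in the submitters' processing notes. No source used here names the counting tool, strand setting or annotation. The library kit was Clontech SMARTer, per the labels. The 68 replicate pairs differed by more than counting error (chi-square per degree of freedom 26.3 to 261).

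The fit was made with edgeR 4.0.16 under R 4.3.3. It used TMM factors of 0.797 to 1.142, filterByExpr at a minimum count of 10, quasi-likelihood F tests with experiment as covariate, and Benjamini-Hochberg adjustment over all genes tested, called under 0.05. TRAP and pre-TRAP genotype contrasts were fitted on their own 16 and 8 libraries. The contrasts between experiments came from the same fits, with genotype as covariate. The contrast between methods and the interactions were fitted on all 24. No label pairs TRAP with pre-TRAP libraries. CPM used the TMM factors, and marker levels on the log2 scale a pseudocount of 0.5. Intervals are 95% normal intervals from the log2 fold change and its SE. Alternatives included DESeq2 1.42.0 and limma 3.58.1 voom. The genotype and method fits were also run on simulated counts, drawn with the same spread for every gene and no experiment effect. Those runs therefore do not show how well small differences would be found in these libraries.

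The members, lists and libraries 3 to 6 were chosen with earlier results of these data known. By rule, all members could be named, with values for those called and for the most abundant of each role, and up to 6 called genes per further list and comparison. Library values are also given for some members not called in the main fits, among them Hspg2 and Gpc5, which goes beyond that rule. Upstream sequences are shown for Hs3st5, Hs3st2, Hs3st3a1 and Hs3st3b1 only, and members without a match in the promoter table have none.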

Additional observations from a re-analysis of the deposited data

Results flagged for a closer look

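A library set far from the rest of its group was found for 10 of 132 gene-by-group sets of heparan sulfate genes (7.58%), where the rule (Dixon's gap ratio at the 95% level) flags about 5% by chance. TRAP mut library 6 accounted for 4 of them. It held 26.5 CPM of Sulf2 (9.49 to 14.4 in the other 7), 90.6 CPM of Gpc3 (23.3 to 38.0), 30.5 CPM of Hspg2 (1.96 to 11.9) and 48.9 CPM of Agrn (21.3 to 31.9). The same library had the highest summed mesenchyme markers of the TRAP libraries, 1267 CPM, and the part of that RNA in the 4 values was not tested. Another 4 were single high TRAP libraries. TRAP mut library 10 held 7.74 CPM of Ndst2 (4.40 to 5.67), TRAP mut library 8 held 2.19 CPM of Hs3st3a1 (0.731 to 1.29), and TRAP het library 3 held 9.99 CPM of Hs3st1 (3.34 to 6.22). TRAP het library 11 held 1.19 CPM of Ndst4 (0.377 to 0.747). In pre-TRAP, het library 21 held 48.4 CPM of Sdc2 (30.6 to 33.3) and mut library 24 stood low for Hs2st1 at 11.0 CPM (14.1 to 14.7 in the other 3).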

How the results depend on the processing

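Counts of members called for TRAP against pre-TRAP ran from 5 to 6 higher and 19 to 21 lower when single libraries were left out, and the genotype and genotype-by-method counts stayed at 0. DESeq2 called 1 member lower in mut TRAP libraries. With the mesenchyme level as a covariate, TRAP against pre-TRAP gave 2 higher and 2 lower; the log2 fold changes turned sign for Extl2 (0.032), Sulf1 (0.056), Gpc1 (-0.008), Ndst1 (-0.40), Ndst2 (0.038), Hs6st2 (0.69), Hspg2 (2.96), Agrn (0.66) and Xylt1 (0.24). The sign also turned in experiment 1 alone for Ndst1 (-0.11), Hs6st2 (0.025) and the TRAP genotype difference of Hs3st1 (0.014), and in experiment 2 alone for Ndst2 (0.14), Ndst4 (-0.029) and Gpc2 (-0.21). For Ndst2 it turned in mut libraries alone (0.084) and without libraries 3 to 6 (0.001), and ran from -0.065 to 0.057 with single libraries left out. The cause was not tested.

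Between experiments in TRAP, the main counts of 1 higher and 1 lower became 2 and 2 in DESeq2, 2 and 2 in limma voom, 2 and 2 with the mesenchyme covariate, 2 and 4 without libraries 3 to 6, 0 and 0 in het libraries alone and 3 higher in mut libraries alone. With single libraries left out they ran from 1 to 3 higher (above 1 without library 3, 9 or 15) and 1 to 3 lower (above 1 without library 3). These TRAP fits called 5.04% to 16.9% of all genes tested higher and 0.807% to 12.2% lower. In pre-TRAP, the main counts of 0 higher and 1 lower became 1 and 3 in limma voom, 1 and 5 with the covariate, 2 lower in DESeq2, 1 higher in mut libraries alone and 0 lower in het libraries alone. With single libraries left out they ran from 0 to 1 higher (1 without library 19), and the Ndst1 difference from -0.10 to 0.36. These pre-TRAP fits called 2.77% to 16.4% of all genes tested higher and 0.0715% to 13.3% lower. Smaller fits hold fewer libraries and so less power. Hs3st2, Ndst3, Ndst4, Gpc2, Gpc5 and Hs6st3 rest on few counts, which limits what could be detected. No paired analysis was made, because no label pairs TRAP with pre-TRAP libraries.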
